A study of Homo sapiens with 2 samples.

Results

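The cytosolic chaperonin CCT and the mitochondrial chaperonin formed by HSPD1 and HSPE1 are described here at the mRNA level, as 10 genes of the 61806 in the count table. The members were chosen by gene name, and members and comparison lists were chosen with earlier results of these data known. TCP1, CCT2, CCT3, CCT4, CCT5, CCT6A, CCT7 and CCT8 encode the 8 different subunits of CCT, and HSPD1 and HSPE1 encode the barrel and the lid of the mitochondrial chaperonin. The cells were HEL, an established human erythroleukemia line, labelled as wild type and grown in RPMI with fetal bovine serum. One culture received 0.5% DMSO and the other L1 at 1 µM, both for 24 h, and L1 is a synthetic derivative of 3,3′-diindolylmethane, a compound formed from cruciferous vegetables. Each condition had 1 library, so the spread between cultures was not measured, no test was run, and the DMSO content of the L1 culture is not given in the labels. The comparison asks how the mRNA of these genes stood in cells treated with L1 against the vehicle.

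Chaperonins are hollow barrels that take up an unfolded protein and close over it, and ATP hydrolysis drives the cycle of closing and release. CCT, also called TRiC, is built of stacked rings in which each subunit has a fixed place, and it folds actin, tubulin and many proteins with WD40 repeats. HSP60, the product of HSPD1, forms rings of 1 kind of subunit in the mitochondrial matrix, and HSP10, the product of HSPE1, caps them. Erythroid leukemia cells divide rapidly and make much actin and tubulin, the main substrates of CCT.

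The libraries held 32556872 counts for DMSO and 27135647 for L1. Of 10 erythroid and megakaryocytic markers, 10 had at least 10 counts in at least 1 library, with a summed level of 3503 CPM (counts scaled to library size) in DMSO and 3652 CPM in L1, and log2 ratios from -1.25 for TFRC to 1.78 for HBG1. HBG2, the other gamma-globin gene, named here after its values were seen, had a log2 ratio of 0.22. How reads were divided between HBG1 and HBG2 was not tested. Among markers of other cell types, CD3E, MS4A1, EPCAM and ALB were at 0 in both libraries, CD14 and COL1A1 each had 5 counts in L1 and 0 in DMSO, and PECAM1, which megakaryocytic cells also express, had 4665 and 3026 counts. The summed level of these markers was 146 CPM in DMSO and 110 CPM in L1. These are bulk cultures, so fewer cells of a kind and less RNA per cell cannot be told apart.

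The starts of HSPD1 and HSPE1 lie back to back on chromosome 2, with 104 bases between them in RefSeq (GRCh38.p14), where HSPD1 has another start further downstream. The promoter windows of RefSeq, 250 bases before a start and 50 after it, were searched on both strands for the core of a heat shock element (GAANNTTC or TTCNNGAA), the CCAAT box (CCAAT), the E-box (CACGTG) and the GC box (GGGCGG). Windows were at hand for 9 members, 12 windows in all, and CCT6A had no entry. The heat shock element core was found in 4 of the 12 windows, of HSPD1, TCP1, CCT2 and CCT4, against 13.5% of all 35116 windows, and in HSPD1 overlapping copies form 1 run. These stretches are shown because the core is the sequence that heat shock factors bind. Capitals mark the matches, each stretch is written on the strand of its gene, and a match is a description and not a binding site.
HSPD1, second start, minus strand, chr2:197500061-197500090: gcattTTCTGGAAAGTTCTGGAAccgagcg
TCP1, minus strand, chr6:159789815-159789844: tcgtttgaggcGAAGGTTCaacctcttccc
CCT2, second start, plus strand, chr12:69585789-69585818: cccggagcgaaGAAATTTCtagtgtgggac
CCT4, minus strand, chr2:61888607-61888636: cccgacgccggcgccgctTTCTGGAAggtt

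The E-box was found only between HSPD1 and HSPE1 among the members, in 2 of the 12 windows because both genes share it, and 7.26% of all windows hold one. The stretch is shown as the one motif that both mitochondrial genes have in common here besides a GC box.
HSPE1, plus strand, chr2:197500345-197500374: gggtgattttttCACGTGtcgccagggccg
The CCAAT box was found in 4 of the 12 windows, of CCT2, CCT3, CCT8 and TCP1, against 34.6% of all windows. The GC box was found in 9 of the 12 windows, of 7 members, against 45.0% of all windows. No promoter motif was shared by all members with a window.

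Chaperonin mRNA was slightly higher in the L1 library for 9 of the 10 genes, and the differences were small. The 8 CCT genes together went from 130197 counts under DMSO to 127885 under L1, which was 0.400% and 0.471% of the libraries. After scaling by TMM, which set the effective library size of DMSO at 1.16 times that of L1, their summed counts gave a log2 ratio of L1 to DMSO of 0.19 (95% counting interval 0.18 to 0.20). HSPD1 and HSPE1 together went from 30879 counts under DMSO to 34027 under L1, with a log2 ratio of 0.35 (0.33 to 0.38). The median log2 ratio was 0.20 over the 8 CCT genes, with a range from -0.10 to 0.38, and 0.27 over all 10 genes. Of single genes, 49.6% of those with at least 10 counts in 1 library and 45.8% of those with at least 1000 had a log2 ratio above 0. The median was -0.0040 over the 18123 genes with at least 10 counts in 1 library and -0.028 over the 6479 genes with at least 1000 counts, the depth class that holds every member. Intervals are exact (Clopper-Pearson), cover counting error only and compare these 2 libraries, not the conditions.

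None of the 10 genes differed by 1.5-fold or more in either direction. Among the 18123 genes, 13.8% stood higher under L1 by 1.5-fold or more, and 11.4% stood lower by as much. In the class with at least 1000 counts these shares were 5.19% and 6.22%. The whole counting interval lay above 0 for 9 of 10 chaperonin genes, against 34.1% of the genes with at least 1000 counts, and below 0 for 1 of 10, against 41.8%. Because the members were chosen with earlier results of these data known, these shares describe the list and do not test it. At this depth even a small difference leaves 0 outside the counting interval, and whether it exceeds the variation between cultures was not measured.

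**Figure D1:**
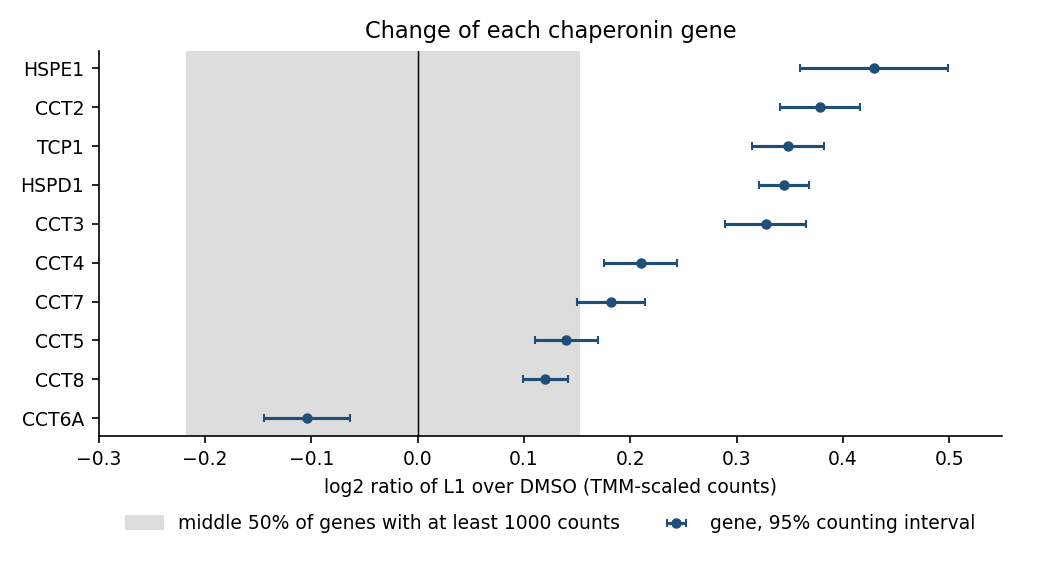
Log2 ratio of L1 over DMSO for each chaperonin gene (x axis, TMM-scaled counts), with 95% counting intervals as bars and the middle 50% of the 6479 genes with at least 1000 counts as a grey band from -0.22 to 0.15. HSPE1, CCT2, TCP1, HSPD1, CCT3 and CCT4 lie to the right of the band with their whole intervals, and CCT6A is the only gene below 0.

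In the mitochondrial pair, HSPE1 had the highest log2 ratio of the 10 genes and HSPD1 the fourth highest. HSPE1, which encodes the HSP10 lid (ENSG00000115541, on chromosome 2 between 197499994 and 197503457, GENCODE 29 on GRCh38), went from 3116 counts under DMSO to 3620 under L1. Its log2 ratio of 0.43 (0.36 to 0.50) stood above that of 91.9% of the genes with at least 1000 counts. HSPD1, which encodes the HSP60 barrel subunit (ENSG00000144381, on chromosome 2 between 197486581 and 197516737), went from 27763 counts under DMSO to 30407 under L1, with a log2 ratio of 0.34 (0.32 to 0.37). HSPD1 thus stood lower than HSPE1. The ratio of HSPD1 to HSPE1 counts was 8.91 in DMSO and 8.40 in L1, a log2 change of -0.09 (-0.16 to -0.01). Their exons overlap on opposite strands over 281 bases, and the use of strand in the counting is not given in the sources used here. HSPE1-MOB4, a readthrough gene on the strand of HSPE1, had 0 counts in both libraries.

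Among the CCT genes, CCT2, TCP1 and CCT3 had the highest ratios. CCT2, the beta subunit (ENSG00000166226, on chromosome 12 between 69585334 and 69601570), went from 10750 counts under DMSO to 12054 under L1, with a log2 ratio of 0.38 (0.34 to 0.42). TCP1, the alpha subunit after which the complex was first named (ENSG00000120438, on chromosome 6 between 159778498 and 159789749), went from 13086 counts under DMSO to 14372 under L1, with a log2 ratio of 0.35 (0.31 to 0.38). CCT3, the gamma subunit (ENSG00000163468, on chromosome 1 between 156308968 and 156367873), went from 10754 counts under DMSO to 11640 under L1, with a log2 ratio of 0.33 (0.29 to 0.37). These 3 genes and HSPD1 had counting intervals that overlapped one another, and the ratio of HSPD1 to CCT3 counts changed by 0.02 on the log2 scale (-0.03 to 0.06). The exons of TCP1 share 397 bases with ACAT2 on the opposite strand, which encodes an acetyl-CoA acetyltransferase. ACAT2 went from 3493 counts under DMSO to 5835 under L1, a log2 ratio of 0.95 (0.89 to 1.01), and the part of its reads in the value of TCP1 was not tested. With the overlapping genes summed, the log2 ratio of TCP1 was 0.50, which is the value of the locus and not of the gene.

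CCT4, CCT7, CCT5 and CCT8 formed a lower group. CCT4, the delta subunit (ENSG00000115484, on chromosome 2 between 61868089 and 61888804), went from 13542 counts under DMSO to 13511 under L1, with a log2 ratio of 0.21 (0.18 to 0.24). CCT7, the eta subunit (ENSG00000135624, on chromosome 2 between 73233420 and 73253021), went from 15824 counts under DMSO to 15482 under L1, with a log2 ratio of 0.18 (0.15 to 0.21). For both, the counts themselves were nearly level, and the positive ratio rests on the smaller L1 library. The same holds for CCT5 and CCT8 below, whose counts were lower in L1 than in DMSO before scaling. COMMD1, on the opposite strand, shares 81 exon bases with CCT4 and had 364 and 377 counts, a log2 ratio of 0.26 (0.05 to 0.48). CCT5, the epsilon subunit, in which a mutation causes a hereditary sensory neuropathy (ENSG00000150753, on chromosome 5 between 10249921 and 10266412), went from 18665 counts under DMSO to 17740 under L1, with a log2 ratio of 0.14 (0.11 to 0.17). An antisense gene, AC012640.4, overlaps 1757 exon bases of CCT5 and went from 242 counts under DMSO to 319 under L1, which is 0.61 (0.37 to 0.86) on the log2 scale. The part of its reads in the value of CCT5 was not tested. CCT8, the theta subunit (ENSG00000156261, on chromosome 21 between 29055805 and 29073797), had the most counts of all members, 36304 in DMSO and 34038 in L1, and a log2 ratio of 0.12 (0.10 to 0.14).

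CCT6A stood apart as the one chaperonin gene with a lower level in the L1 library. It encodes the zeta subunit (ENSG00000146731, on chromosome 7 between 56051630 and 56063989), and it went from 11272 counts under DMSO to 9048 under L1. Its log2 ratio was -0.10 (-0.14 to -0.06), and 39.3% of the genes with at least 1000 counts had a lower ratio. CCT2 and CCT6A, the members at both ends of the CCT range, had nearly equal counts in DMSO, with a ratio of 0.954, and a ratio of 1.33 in L1. This change of 0.48 on the log2 scale (0.43 to 0.54) does not depend on how the libraries were scaled. The sign of CCT6A held under all 4 scalings, from -0.14 to -0.05.

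The balance among the CCT genes was then read within each library, since CCT holds its 8 subunits in equal number. Against the summed counts of the other 7 genes, CCT2 was shifted by 0.21 on the log2 scale in the L1 library (0.17 to 0.25), TCP1 by 0.18 (0.14 to 0.22) and CCT3 by 0.15 (0.11 to 0.19). CCT4 (0.03, -0.01 to 0.06) and CCT7 (-0.01, -0.04 to 0.03) had intervals that included 0, so any difference of these genes from the rest of the complex was not detectable at this depth. CCT5 was at -0.06 (-0.09 to -0.02), CCT8 at -0.09 (-0.12 to -0.07) and CCT6A at -0.32 (-0.36 to -0.27). CCT6A thus went from 8.66% of all CCT counts in DMSO to 7.08% in L1, while CCT2 went from 8.26% to 9.43%. The standard deviation of the log2 ratio over the 8 genes was 0.16, against 0.51 over the genes with at least 1000 counts.

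**Figure D2:**
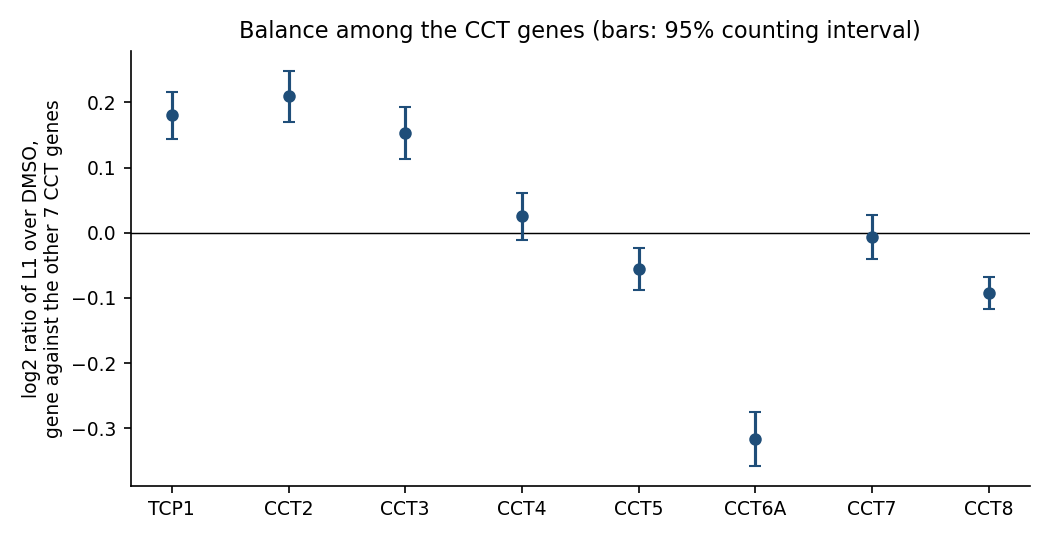
Log2 ratio of L1 over DMSO of each CCT gene relative to the summed counts of the other 7 (y axis), with 95% counting intervals as bars. CCT2, TCP1 and CCT3 lie above 0, CCT4 and CCT7 have intervals that include 0, and CCT6A lies lowest at -0.32.

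Levels were compared between genes per length, as deposited FPKM (fragments per kilobase of length, scaled to library size). CCT8 was the most abundant member in both libraries, with 342 FPKM in DMSO and 371 in L1, and ranked 82 and 76 among the 13924 genes with an FPKM value. CCT4 followed with 158 and 182 FPKM, CCT7 with 139 and 157, and HSPD1 with 114 and 145. CCT5 had 104 FPKM in DMSO and 115 in L1. By deposited FPKM these 5 genes kept their order in both libraries, and HSPE1 had the lowest level in both, 53.8 and 72.4 FPKM. The highest CCT level was 4.28 times the lowest in DMSO and 4.33 times in L1, but without CCT8 these ranges were 1.97 and 2.13. The order depends on the length used. Per kilobase of the longest principal transcript, CCT7 (258 in DMSO and 293 in L1) stood above CCT4 (168 and 194). By that length CCT4 came 4th of the members in DMSO and 7th in L1. In L1 HSPE1 (138) then stood above CCT6A (121).

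The lower part of the order by deposited FPKM changed with CCT6A. In DMSO, CCT6A (92.2 FPKM) was followed by CCT3 (87.5), TCP1 (84.3) and CCT2 (79.9). In L1, CCT3 (110), TCP1 (107) and CCT2 (104) stood above CCT6A (85.8). Per kilobase of the longest principal transcript this crossing was not seen, since CCT6A was already the lowest CCT gene in DMSO (130, against 156 for CCT3, the next) and stayed lowest in L1 (121). CCT3 and TCP1 in L1 were the only neighbours in either order whose FPKM ratio had a counting interval that included 1, a ratio of 1.02 (0.999 to 1.05). Across the 8 CCT genes, log2 FPKM in DMSO and L1 had a Pearson correlation of 0.97 and a Spearman correlation of 0.86, as a description over genes that share a complex and 2 libraries.

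**Figure D3:**
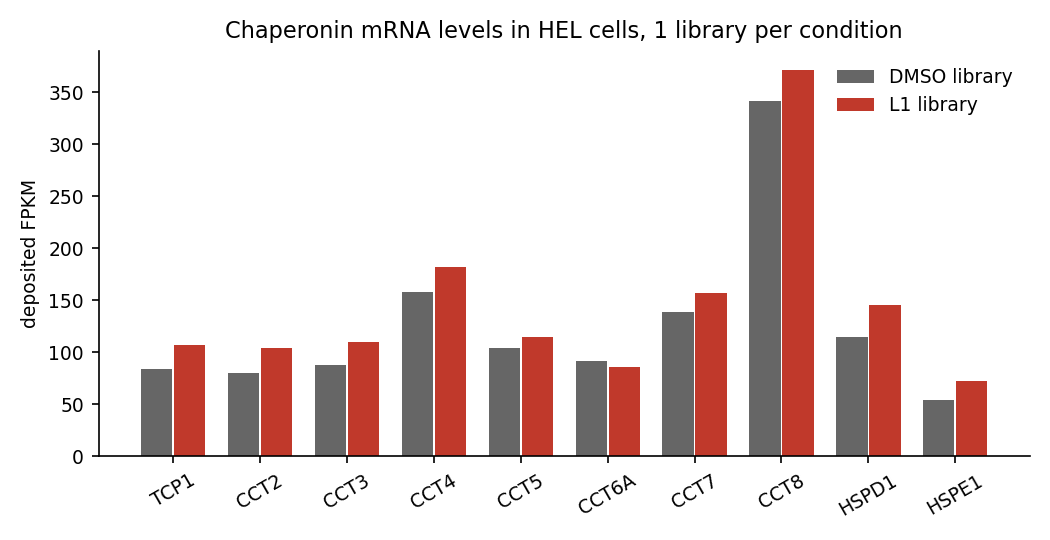
Deposited FPKM (y axis) of the 10 chaperonin genes in the DMSO library (grey bars) and the L1 library (red bars), 1 library each and hence with no error bars. CCT8 is the tallest pair of bars at 342 and 371 FPKM, and CCT6A is the only pair in which the L1 bar is the shorter one.

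The length behind an FPKM value also set the place of HSPD1. The deposited values correspond to a length of 7579 bases for HSPD1, while its merged exons in GENCODE 29 span 4245 bases, a ratio of 1.79. For the other 9 members this ratio was between 0.916 and 0.993. Per kilobase of merged exons, HSPD1 reached 204 FPKM in DMSO and 259 in L1 and came second, after CCT8. Per kilobase of its longest principal transcript of 2455 bases it reached 353 and 449. HSPD1 stood 2.13-fold above HSPE1 in DMSO by deposited FPKM, but 4.15-fold by merged exons and 3.45-fold by principal transcripts. CCT8 came first under all 3 lengths. The fold changes between libraries do not depend on the length.

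**Figure D4:**
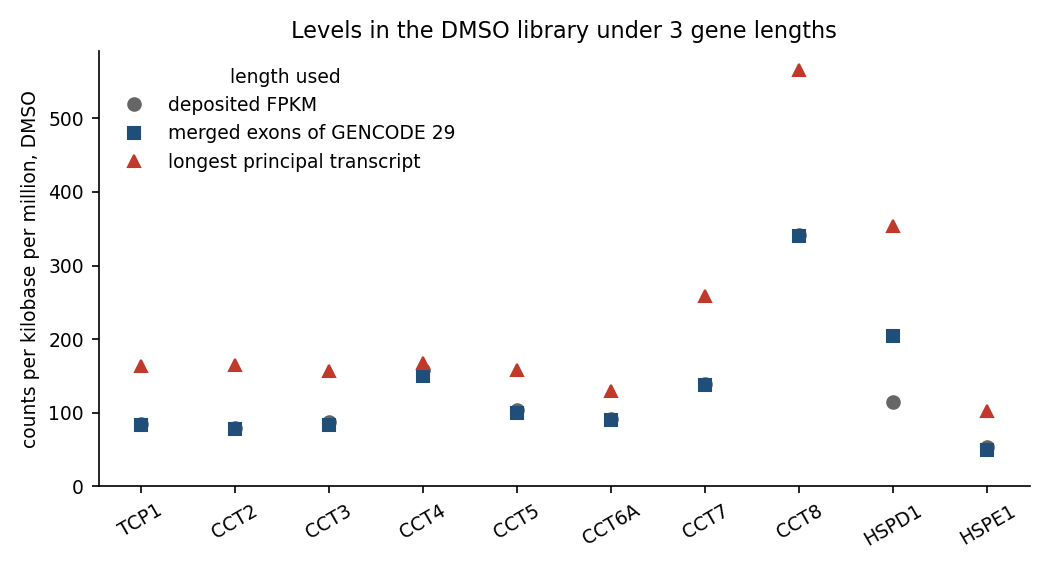
Level of each chaperonin gene in the DMSO library (y axis, counts per length, scaled as FPKM) with the length behind the deposited FPKM (grey circles), the merged exons of GENCODE 29 (blue squares) and the longest principal transcript (red triangles). CCT8 is highest with each length, and HSPD1 moves from 114 to 204 and 353.

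Chaperonin genes have left many pseudogenes in the genome, and a counting program can assign reads to them. GENCODE 29 names 56 pseudogenes after the members, of which 23 had a count in these libraries and 5 had at least 100 in 1 of them. Summed, the 56 pseudogenes went from 1583 counts under DMSO to 1357 under L1, 0.983% and 0.838% of the counts of the members. CCT6A had the largest such share, 5.18% in DMSO and 3.76% in L1. CCT6P1 went from 394 counts under DMSO to 233 under L1, with a log2 ratio of -0.54 (-0.78 to -0.31), and CCT6P3 had 187 and 106, a log2 ratio of -0.61 (-0.96 to -0.25). Both pseudogenes lay on the side of CCT6A, below 0, so adding them moved its log2 ratio from -0.10 to -0.12. The aligned coding sequence of CCT6A is 94.7% identical to CCT6P1 and 95.2% to CCT6P3. A stretch of 60 coding bases is given for each pair to show how few bases, in capitals, tell their reads apart.
CCT6A, coding bases 388 to 447: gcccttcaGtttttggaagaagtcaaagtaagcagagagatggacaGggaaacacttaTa
CCT6P1: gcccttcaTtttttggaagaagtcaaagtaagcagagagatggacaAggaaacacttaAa
CCT6A, coding bases 1072 to 1131: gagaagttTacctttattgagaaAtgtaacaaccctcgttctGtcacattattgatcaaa
CCT6P3: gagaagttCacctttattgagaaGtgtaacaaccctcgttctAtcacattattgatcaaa

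Of the other 3 pseudogenes with at least 100 counts, HSPD1P1 had an interval above 0, and those of CCT8P1 and HSPE1P2 included 0. HSPD1P1 went from 497 counts under DMSO to 555 under L1, with a log2 ratio of 0.37 (0.20 to 0.55), next to 0.34 for HSPD1. CCT8P1 had 332 and 270 counts, a log2 ratio of -0.09 (-0.32 to 0.15). HSPE1P2 had 100 and 97 counts, a log2 ratio of 0.17 (-0.25 to 0.59). Words of 31 bases in the transcripts of each member were matched on both strands to the transcripts of other genes. The share with a match ran from 3.63% for CCT7 to 33.3% for CCT5. For CCT5 most of it lies in AC012640.4, for HSPD1 (31.3%) and HSPE1 (27.2%) mostly in pseudogenes, in each other and, for HSPE1, in HSPE1-MOB4. A stretch of HSPD1 and HSPD1P1, the single pseudogene with the most counts, shows how close such copies are.
HSPD1, coding bases 130 to 189: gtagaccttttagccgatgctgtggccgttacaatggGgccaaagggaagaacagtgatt
HSPD1P1: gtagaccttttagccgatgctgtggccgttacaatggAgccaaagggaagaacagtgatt

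Prefoldin hands unfolded actin and tubulin to CCT, and 5 of its 6 subunit genes had log2 ratios above 0, with a median of 0.23, where 49.6% of all genes with at least 10 counts were above 0. PFDN2 had the highest, from 1230 counts in DMSO to 1432 in L1, a log2 ratio of 0.43 (0.32 to 0.54). VBP1, also called prefoldin 3, had 0.32 (0.25 to 0.40), PFDN6 had 0.29 (0.20 to 0.37) and PFDN5 had 0.18 (0.05 to 0.30). The interval of PFDN4 (0.07, -0.08 to 0.22) included 0, and PFDN1 was the one below 0, at -0.12 (-0.24 to -0.01). One gene of this list lay below 0, as 1 of the 8 CCT genes did. None of the 6 was 1.5-fold changed.

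Other partners of CCT went less uniformly. Among the prefoldin-like genes, PDRG1 had a log2 ratio of 0.38 (0.26 to 0.51), UXT of -0.12 (-0.23 to -0.01) and URI1 of -0.06 with an interval wholly below 0. Among the cofactors that bind CCT and modulate its folding cycle, TXNDC9 went from 1747 counts under DMSO to 1252 under L1, with a log2 ratio of -0.27 (-0.37 to -0.16). PDCL had 0.04 (-0.06 to 0.14), PDCL3 had -0.14 (-0.27 to 0.00023), and PDCL2 was at 0 counts in both libraries. Of these 6 prefoldin-like genes and cofactors with enough counts, PDRG1 alone had an interval above 0, and UXT, URI1 and TXNDC9 had intervals below 0. Of all genes with at least 1000 counts, 34.1% had an interval above 0 and 41.8% below. The chaperonin-like gene BBS12, which takes part in assembling the BBSome of cilia, went from 19 counts under DMSO to 81 under L1, with a log2 ratio of 2.31 (1.57 to 3.11). Its partner BBS10 had 701 and 542 counts, a log2 ratio of -0.16 (-0.32 to 0.01). CCT6B, the testis form of the zeta subunit, had 18 and 20 counts, and CCT8L2 had 2 and 0.

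The substrates of CCT lay on both sides of 0. Of the 11 actin and tubulin genes, 5 had log2 ratios above 0, a share like the 49.6% of all genes, and the median was -0.01. Past 1.5-fold there were 2 higher genes and 0 lower ones, against 13.8% and 11.4% of all genes with at least 10 counts. TUBB6 had the highest ratio, from 890 counts in DMSO to 1736 in L1, a log2 ratio of 1.18 (1.06 to 1.30). The TUBB6 gene overlaps AFG3L2 on the opposite strand. TUBB, a main beta-tubulin of these cells, had the lowest, from 83445 counts to 49206, a log2 ratio of -0.55 (-0.57 to -0.53). Summed, the 11 genes had 10265 CPM in DMSO and 9273 CPM in L1. The list of 8 WD40 and other substrates had 6 genes above 0 and a median of 0.09, with CDC20, an activator of the anaphase-promoting complex, highest at 0.73 (0.67 to 0.78) and FZR1, its relative in G1 phase, lowest at -0.44 (-0.67 to -0.22). Of the tubulin folding cofactors that receive tubulin from CCT, TBCA had 0.55 (0.47 to 0.62), TBCB had -0.09 (-0.21 to 0.02), TBCC had -0.27 (-0.41 to -0.14), TBCD had -0.22 (-0.31 to -0.14) and ARL2 had -0.30 (-0.47 to -0.14).

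In the mitochondrial matrix HSP60 receives proteins from the mitochondrial HSP70 system. That list of 10 genes, with TRAP1, had its median at -0.01. In it 2 genes were higher and 2 lower past 1.5-fold, against 13.8% and 11.4% of all genes with at least 10 counts. Its ends were the nucleotide exchange factors of mitochondrial HSP70. GRPEL1 went from 2408 counts under DMSO to 3576 under L1, with a log2 ratio of 0.78 (0.71 to 0.86), while GRPEL2 had 2009 and 259 counts, a log2 ratio of -2.74 (-2.93 to -2.56). On either strand, no word of 31 bases in the GRPEL1 transcripts occurs in another gene, and 4.91% of those of GRPEL2 do. HSPA9, the mitochondrial HSP70 itself, named here after its values were seen, had 17897 and 17842 counts, a log2 ratio of 0.21 (0.18 to 0.24). The 10 mitochondrial proteases had a median of 0.01, from PMPCB at -0.50 (-0.59 to -0.41) to YME1L1 at 0.15 (0.11 to 0.19), and none was 1.5-fold changed. Of the transcription factors tied to the mitochondrial unfolded protein response, DDIT3 went from 106 counts under DMSO to 284 under L1, with a log2 ratio of 1.63 (1.31 to 1.97). ATF4 (-0.13, -0.19 to -0.06), ATF5 (-0.17, -0.32 to -0.02) and CEBPB (-0.32, -0.57 to -0.07) were below 0.

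Lists of other heat shock proteins of the cytosol had higher medians than the CCT genes. The cytosolic HSP70 and HSP110 list had a median log2 ratio of 0.55 over 8 genes with enough counts. In this list 4 genes, HSPA1B among them, were at least 1.5-fold higher, against 13.8% of all genes with at least 10 counts. Its ends were HSPH1, an HSP110, at 1.19 (1.15 to 1.24), and HSPA1A at -3.67 (-4.20 to -3.17), which is nearly identical to HSPA1B (0.99, 0.88 to 1.11), so that reads may be split between them and both values are uncertain. The list of HSP90, HSF1 and co-chaperones had a median of 0.31 over 13 genes, with 5 at least 1.5-fold higher, against the same 13.8%. BAG3, a co-chaperone of HSP70, was highest at 0.90 (0.72 to 1.08), and CDC37, which brings kinases to HSP90, was lowest at -0.15 (-0.21 to -0.09). None of the 10 chaperonin genes reached 1.5-fold, and the difference between these lists was not tested.

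**Figure D5:**
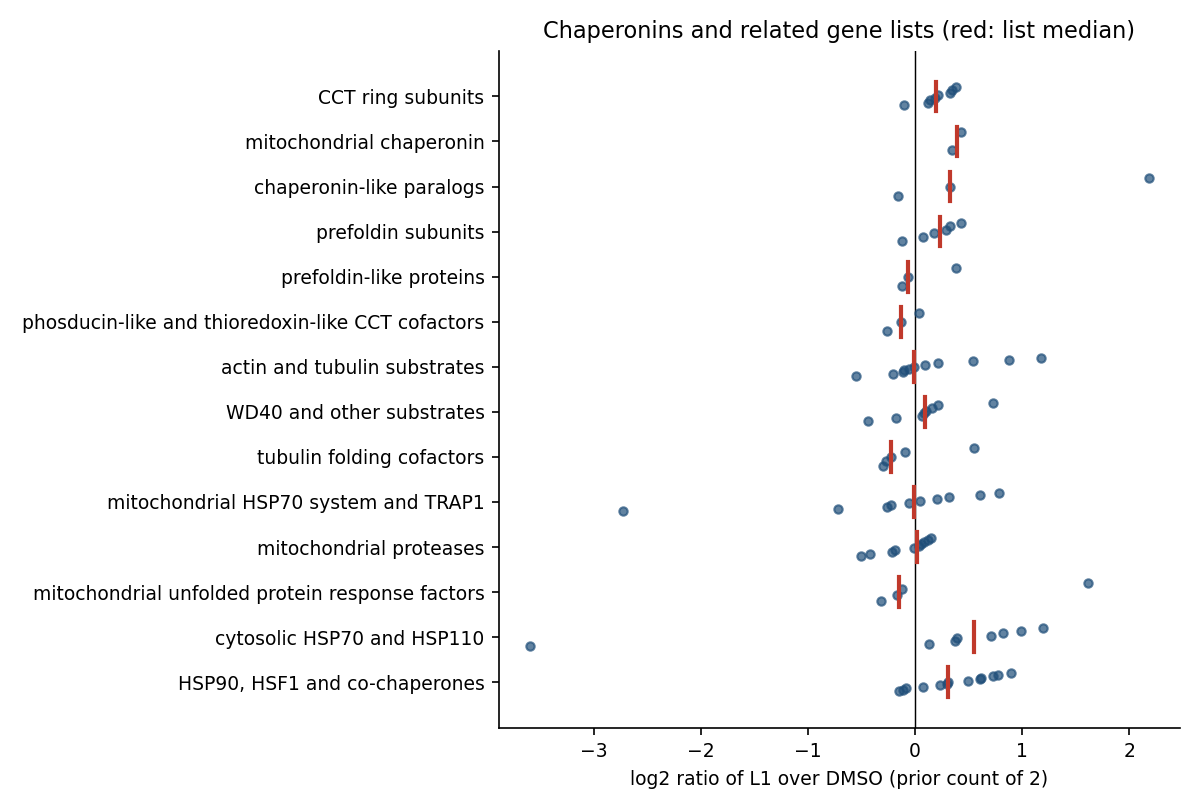
Log2 ratio of L1 over DMSO with a prior count of 2 (x axis) for each gene with at least 10 counts in 1 library (blue points), by gene list (rows), with the list median in red. The CCT genes sit between -0.10 and 0.38, the mitochondrial HSP70 list spreads from GRPEL2 at the left to GRPEL1 at the right, and most of the HSP70 and HSP110 genes lie to the right of the CCT genes.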

How the data were processed

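mRNA was sequenced from HEL cells kept for 24 h in L1 (1 µM) or in 0.5% DMSO, with 1 library per condition. The submitters' processing notes name fastp, HISAT2 2.1.0, StringTie and build hg38. The counting program, the annotation and the use of strand are not given in the sources used here. The authors deposited raw counts per Ensembl gene, without normalization, and FPKM values of 13924 genes. The FPKM ratio of each gene equals its TMM-scaled count ratio. TMM factors were computed over all genes with edgeR 4.0.16, and the size factors of DESeq2 1.42.0 served as another scaling, in R 4.3.3. Other steps used Python 3.11.15, numpy 2.4.6, pandas 2.3.3 and scipy 1.17.1.

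A log2 ratio of a single gene has no prior count, and its 95% Clopper-Pearson interval covers counting error only. Ratios over all genes and list medians used a prior count of 2 and genes with at least 10 counts in 1 library. With 1 library per condition no test was run. Positions, exon overlaps and transcript words of 31 bases came from GENCODE 29 (GRCh38), which holds 58254 of the 61806 identifiers, and promoters from RefSeq (GRCh38.p14), without liftover. The interval was checked on simulated counts with counting error alone and a known library ratio. That check could not cover variation between cultures or error in the TMM factors. Named are all 10 members, overlapping genes and pseudogenes of members with at least 100 counts, all genes of lists with up to 6 genes, and the ends of longer lists. Members and lists were chosen with earlier results of these data known.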

Additional observations from a re-analysis of the deposited data

How the results depend on the processing

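Scaling was also done by total counts, by the upper quartile and by DESeq2, and values were recomputed from deposited FPKM, from log2(FPKM + 1), with other filters and prior counts, and with pseudogenes and readthrough genes added in. Sums with overlapping genes and lengths of principal transcripts were chosen after seeing the data. No sign of any chaperonin gene changed in the 70 values computed, and 22 of these left the gene's counting interval, 9 of them under total counts and 8 under upper quartile scaling. The 70 values are not independent of one another. Deposited FPKM repeats the main ratios, and each change of scaling moves all genes by the same amount, so the unchanged signs carry little weight. The median log2 ratio of the 8 CCT genes was 0.25 with total counts and 0.23 with upper quartile scaling, and that of the 10 genes was 0.32 and 0.31, since both methods give L1 a smaller library. The number of genes at least 1.5-fold higher, 2506 of 18123, went to 5936 of 27464 with no minimum count. It was 336 of 6479 with at least 1000 counts and 567 of 13924 with log2(FPKM + 1). The number at least 1.5-fold lower, 2065, went to 4227, 403 and 572 in the same sets of genes. These settings thus also change how many genes are counted. The fold range among the CCT genes in L1 was 5.10 per kilobase of principal transcripts. No paired analysis was possible because DMSO and L1 have 1 library each, and for the same reason no library could be left out. Depth does not limit the members, among which HSPE1, with the fewest counts, had the widest interval (0.36 to 0.50), but the missing replicates do.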

Other observations

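Genes listed under 2 identifiers were left out of the lists. MKKS, a chaperonin-like gene that works with BBS10 and BBS12, had 1222 counts in DMSO and 1287 in L1 under ENSG00000125863, a log2 ratio of 0.29 (0.17 to 0.40), and 605 and 477 counts under ENSG00000285723, a log2 ratio of -0.13 (-0.31 to 0.05). TBCE, a tubulin folding cofactor, had 1504 and 1275 counts under ENSG00000284770, a log2 ratio of -0.03 (-0.13 to 0.08), and 153 and 197 counts under ENSG00000285053, a log2 ratio of 0.58 (0.27 to 0.89). Which identifier the reads of these genes belong to was not tested.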
